A study of Mus musculus with 136 samples.

Results

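Wide H3K27me3 regions that also carry SUZ12 were examined in mouse embryonic stem cells (ESCs). The members were chosen on measured values of the WT lists, as regions of the original H3K27me3 list of at least 20000 bp that overlapped a WT SUZ12 peak by 1 bp or more. This rule gave 1125 of 41869 H3K27me3 regions. They held 44.3 Mb, or 12.2% of all bases in the list. A further 2556 regions were as wide but had no WT SUZ12 peak, and 1910 narrower regions had one.

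SUZ12 was profiled by ChIP-seq in crosslinked chromatin of MCM2-2A clones 439 and 442 and of WT clone 410, with 3 replicates each. The histone marks were profiled by native ChIP-seq of MNase-digested chromatin with a Drosophila spike-in, and their lists used here came from WT clone 410 alone. In MCM2-2A cells the part of MCM2, a replicative helicase subunit, that binds histones is mutated, and each clone is a single derived line. All clones were E14JU ESCs of strain 129/Ola, kept with serum and leukaemia inhibitory factor, and no differentiated cells were included. H3K27me3, H3K4me3 and H3K9me3 had an original experiment (2 replicates) and a rescue experiment (3 replicates), and H3K27ac had the original one (2 replicates). Each list had been combined over its replicates, so every value below is 1 value per list. Intervals are 95% Wilson intervals, which cover counting error only.

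Polycomb repressive complex 2 (PRC2) places methyl groups on lysine 27 of histone H3, and SUZ12 is a core subunit that holds the complex together. In ESCs the complex is known to gather at CpG-rich start sites of silent developmental genes, from which H3K27me3 extends into flanking chromatin. Many of these start sites also carry H3K4me3, a mark of promoters, and are then called bivalent. H3K27ac marks active promoters and enhancers and cannot lie on the same histone tail as H3K27me3, while H3K9me3 marks heterochromatin.

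The promoter sequences of the regions are shown first, because the start sites under their SUZ12 peaks were, as a set, rich in CpG. The lines below give the 250 bases before the start site of the genes in the 5 regions with the highest WT SUZ12 fold enrichment. They are from RefSeq (GRCm38.p6, the same build as mm10), 5′ to 3′ on the gene's strand, with every CG in capitals.
Nkx1-1 (chr5:33434091-33434340, minus strand): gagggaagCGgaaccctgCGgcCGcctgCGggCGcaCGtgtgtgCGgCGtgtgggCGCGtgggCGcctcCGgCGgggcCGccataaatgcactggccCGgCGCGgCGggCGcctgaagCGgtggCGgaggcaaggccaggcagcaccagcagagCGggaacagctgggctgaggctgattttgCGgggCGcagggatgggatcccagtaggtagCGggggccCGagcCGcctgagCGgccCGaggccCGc
Skor1 (chr9:63146981-63147230, minus strand): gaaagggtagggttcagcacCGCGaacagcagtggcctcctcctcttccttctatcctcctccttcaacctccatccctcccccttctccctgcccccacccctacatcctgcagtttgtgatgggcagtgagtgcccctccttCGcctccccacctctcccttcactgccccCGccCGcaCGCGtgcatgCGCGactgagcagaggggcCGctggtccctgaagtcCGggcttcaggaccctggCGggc
Neurod2 (chr11:98329646-98329895, minus strand): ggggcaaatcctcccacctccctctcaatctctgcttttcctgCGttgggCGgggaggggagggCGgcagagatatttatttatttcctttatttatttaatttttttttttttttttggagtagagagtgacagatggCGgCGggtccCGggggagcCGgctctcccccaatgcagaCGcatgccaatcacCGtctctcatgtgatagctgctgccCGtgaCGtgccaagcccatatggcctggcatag
Foxd1 (chr13:98353995-98354244, plus strand): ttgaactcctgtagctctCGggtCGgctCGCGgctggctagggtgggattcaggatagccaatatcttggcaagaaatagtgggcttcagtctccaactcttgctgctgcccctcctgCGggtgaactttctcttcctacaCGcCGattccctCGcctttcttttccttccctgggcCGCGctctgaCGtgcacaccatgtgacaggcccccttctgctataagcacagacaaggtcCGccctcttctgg
Olig2 (chr16:91225300-91225549, plus strand): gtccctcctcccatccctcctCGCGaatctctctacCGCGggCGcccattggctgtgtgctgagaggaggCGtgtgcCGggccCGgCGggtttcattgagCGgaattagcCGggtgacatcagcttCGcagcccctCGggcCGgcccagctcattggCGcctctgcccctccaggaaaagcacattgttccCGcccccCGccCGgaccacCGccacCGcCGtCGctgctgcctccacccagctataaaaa
The same stretch is given for the 2 widest regions without WT SUZ12 that held a placed start site, those of Ropn1 and Thbs2.
Ropn1 (chr16:34650961-34651210, plus strand): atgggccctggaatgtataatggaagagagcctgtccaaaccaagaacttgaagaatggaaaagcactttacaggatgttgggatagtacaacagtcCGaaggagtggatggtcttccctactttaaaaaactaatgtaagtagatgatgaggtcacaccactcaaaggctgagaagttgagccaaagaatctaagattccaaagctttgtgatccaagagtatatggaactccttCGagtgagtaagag
Thbs2 (chr17:14694263-14694512, minus strand): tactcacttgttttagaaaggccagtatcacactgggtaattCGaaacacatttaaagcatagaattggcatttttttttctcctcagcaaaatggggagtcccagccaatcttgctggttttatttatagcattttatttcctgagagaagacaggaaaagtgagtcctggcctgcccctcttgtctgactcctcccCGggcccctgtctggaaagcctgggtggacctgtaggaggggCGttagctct
The stretch before Nkx1-1 held 30 CG, that before Olig2 22, and those before Skor1, Foxd1 and Neurod2 held 12, 12 and 11. The stretches before Ropn1 and Thbs2 held 2 and 3.

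Over the full 300-base promoter windows (250 bases before to 50 after the start), 872 start sites lay in a wide region and under its WT SUZ12 peak, and their median was 22 CG. The 169 start sites in the same regions but outside a SUZ12 peak had a median of 6 CG, and the 349 start sites in wide regions without SUZ12 had a median of 5 CG. At least 15 CG were found in 73.1% (70.0 to 75.9%) of the windows under SUZ12, against 22.5% (16.8 to 29.4%) of those beside it and 14.3% (11.0 to 18.4%) of those in wide regions without SUZ12. Over all 21263 placed start sites the share was 46.8% and the median 13 CG. In narrower regions, start sites under SUZ12 had a share of 78.2% (75.6 to 80.5%) and a median of 24 CG, so a CG-rich start under SUZ12 was shared by both width classes. The count is of the letters CG, which read the same on both strands, and it says nothing of methylation.

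The 1125 regions ranged in width from 20031 bp to 357 kb with a median of 32.0 kb, and 219 of them reached 50 kb and 29 reached 100 kb. The 3 nearest above the threshold were 20031 bp over Ednra, the endothelin receptor A gene, 20081 bp over Capn2 and 20101 bp over Prr36 and Lrrc8e. The 3 nearest below it that bore SUZ12 were 19951 bp over Clcf1, 19931 bp over Ncam2 and 19921 bp over Vwc2. The WT fold enrichment of their strongest SUZ12 peak was 8.11, 21.5 and 6.24 inside the threshold and 49.4, 7.56 and 83.2 outside it.

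Most of a wide region was free of SUZ12. A single WT SUZ12 peak was found in 829 regions (73.7%), and 18 regions had 5 or more. WT SUZ12 peaks covered a median of 10.8% of a region, and in 515 regions (45.8%) they covered less than 10%. Only 23 regions were under SUZ12 over at least 50% of their length. The median was 3.58 kb of SUZ12 per region, with a 10th percentile of 1.56 kb and a 90th of 11.6 kb. Wider regions tended to hold more SUZ12 bases, with a Spearman coefficient of 0.36 across the 1125 regions, which share the same libraries. These values used the lists that chose the regions and are a description.

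The width classes differed in the strength of their strongest peak more than in share covered. Here and below, the fold enrichment of a region is that of its strongest peak. The median WT fold enrichment was 22.0 in 490 regions of 20 to 30 kb, 30.1 in 416 of 30 to 50 kb, 48.8 in 190 of 50 to 100 kb and 85.7 in 29 of 100 kb or more. The mean number of WT peaks per region was 1.26, 1.38, 1.70 and 3.52 in these classes, and a maximum can rise with the number of peaks. SUZ12 covered 14.6%, 13.6%, 13.2% and 21.9% of the bases of these classes. Both mutant lists held SUZ12 somewhere in all 29 regions of the widest class and in 96.9% of the narrowest. A wider region offers more room for a peak.

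**Figure D1:**
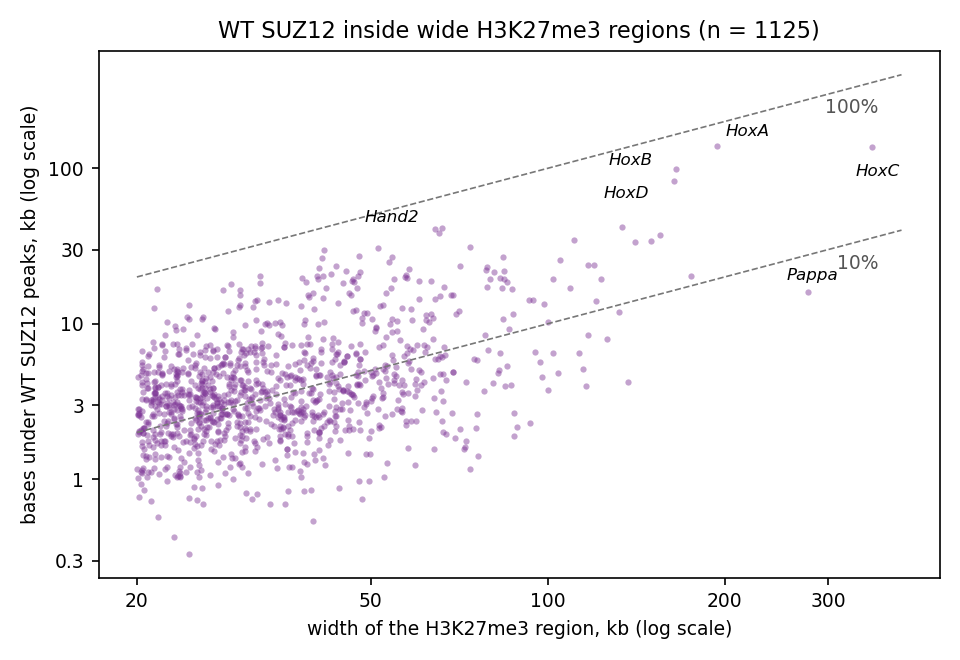
WT SUZ12 bases (kb, log scale) against the width of each of the 1125 regions (kb, log scale), 1 point per region, with dashed lines where SUZ12 covers 100% and 10% of the region. The 4 Hox clusters lie at the upper right, and 515 regions lie below the 10% line.

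The Hox clusters were the broadest SUZ12 domains. They encode the homeobox factors that set position along the body axis, and 38 of 39 Hox genes lay in 4 wide regions, the exception being Hoxb13. The HoxA region (chr6:52140430-52334110, 194 kb, with Evx1) had 143 kb of SUZ12 in clone 439 and 147 kb in clone 442, against 139 kb in WT, which is 71.9% of its length. The HoxB region (chr11:96226960-96391710, 165 kb) had 106 and 103 kb in clones 439 and 442, against 98.5 kb in WT. The HoxC region (chr15:102793760-103150890, 357 kb) was the widest of all and had 145 and 133 kb, against 138 kb in WT. SUZ12 therefore stayed listed over all 4 clusters in both mutant clones, and clone 442 had fewer listed bases than WT at HoxC. The list of clone 442 had no HoxC peak between 102961271 and 102974759, although its peaks on either side had fold enrichments of 52.0 and 60.8. WT and clone 439 each had a peak across that stretch, where read coverage was not analysed.

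The HoxD region (chr2:74626120-74789860, 164 kb, with Evx2) had 109 kb of SUZ12 in clone 439 and 104 kb in clone 442, against 82.7 kb in WT. Most of this difference was 1 peak of 20.4 kb (chr2:74720857-74741235 in clone 439), with a fold enrichment of 58.2 in clone 439 and 43.5 in clone 442. The WT list had no peak between 74715358 and 74741325, although its peaks on either side had fold enrichments of 65.4 and 87.8. Read coverage in that gap was not analysed here.

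Several other of the widest regions had SUZ12 over a small part of their length. The region over Pappa, a metalloproteinase of the insulin-like growth factor pathway, was 277 kb wide and had 15.0 and 15.8 kb of SUZ12 in clones 439 and 442, against 15.9 kb in WT. The region over Cdkn1c and Kcnq1, an imprinted locus whose Cdkn1c product inhibits cyclin-dependent kinases, was 175 kb wide and had 19.9 and 19.1 kb, against 20.2 kb in WT. The region over Cdh5 (VE-cadherin of endothelium) and Bean1 was 137 kb wide and had 7.99 and 8.17 kb, against 4.24 kb in WT. By contrast the 64.3 kb over Hand2, a heart and limb factor, were under SUZ12 over 63.7% of their length in WT.

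The highest WT fold enrichment in the regions, 166, was at Nkx1-1 in a 100 kb region, followed by Skor1 (147), Neurod2 (144), Foxd1 (141) and Olig2 (130), the last a factor of motor neurons and oligodendrocytes. The HoxD region (127), Isl2 (127), Onecut3 (126), Pou3f3 (125) and Dmrta2 (122) completed the 10 highest. All 10 had SUZ12 in both mutant lists, with fold enrichments of 82.2 to 128 in clone 439 and 65.5 to 98.1 in clone 442. Each of these was below the WT value of the same region, but the 10 were chosen for a high WT value.

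Without that choice, the strongest peak had a median fold enrichment of 32.6 in clone 439 and 28.4 in clone 442, against 28.7 in WT. The WT values cover all 1125 regions, and the mutant values the 1109 and 1104 with a peak in clones 439 and 442. The mutant percentiles thus leave out regions with no mutant peak. The 90th percentile was 77.2 and 58.9 in clones 439 and 442, against 79.7 in WT, and the 10th percentile was 10.0 and 9.38, against 8.03 in WT. Over the whole lists the medians were 12.4 and 11.1, against 13.4 in WT. Fold enrichment is relative to the local background of each list, and a part of depth in these differences was not tested.

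The regions held a large share of SUZ12. They were touched by 1688 of 7571 peaks in clone 439 (22.3%) and 1693 of 7840 in clone 442 (21.6%), against 1619 of 6298 in WT (25.7%). In WT the peaks touching them were wider than all other peaks (medians of 2.88 and 2.00 kb) and stronger (median fold enrichments of 21.1 and 11.9). Of the 100 strongest WT peaks, 48 touched these regions, 1 touched a narrower region, and 51 touched no region of the original H3K27me3 list. The regions are thus those that this list held, and not all broad SUZ12 sites. In all, 2531 WT peaks touched no region of the original list, and 1824 of these touched one of the rescue list.

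Of the 1080 regions on chromosomes with placed start sites, the strongest WT summit was within 1 kb of a start site in 562 (52.0%) and within 5 kb in 63.7%, with a median distance of 851 bp. Among the 751 regions with a placed start site inside, the strongest WT summit was within 1 kb of one in 560 and within 5 kb in 685, with a median distance of 439 bp. Start sites were placed for 17492 of 21887 protein-coding genes, and the other genes could not enter this measure.

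Around the strongest WT summit, SUZ12 fell off within a few kb in all 3 clones. At 5 kb on the side of higher coordinates, 10.8% of regions had a listed SUZ12 peak in clone 439 and 10.4% in clone 442, against 9.35% in WT. H3K27me3 of the rescue list, which the rule did not use, covered the summit in 76.1% of regions. On the same side it covered the point 5 kb away in 71.6% and the point 10 kb away in 61.5%. At 10 kb towards lower coordinates it covered 67.3%. The original list covered 90.8% at 5 kb and 70.7% at 10 kb towards higher coordinates, and 84.6% at 10 kb towards lower ones. The width of at least 20 kb fixes these shares in part. The list of H3K4me3 held the summit itself in 99.2% of regions. It held the point 5 kb away in 7.48% towards higher and 5.16% towards lower coordinates. H3K27ac covered the summit in 4.36% and H3K9me3 in 0.445%. At 30 kb H3K9me3 covered 7.03% towards higher and 4.99% towards lower coordinates. H3K4me3 was therefore centred on the SUZ12 summit and H3K9me3 was lowest there.

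**Figure D2:**
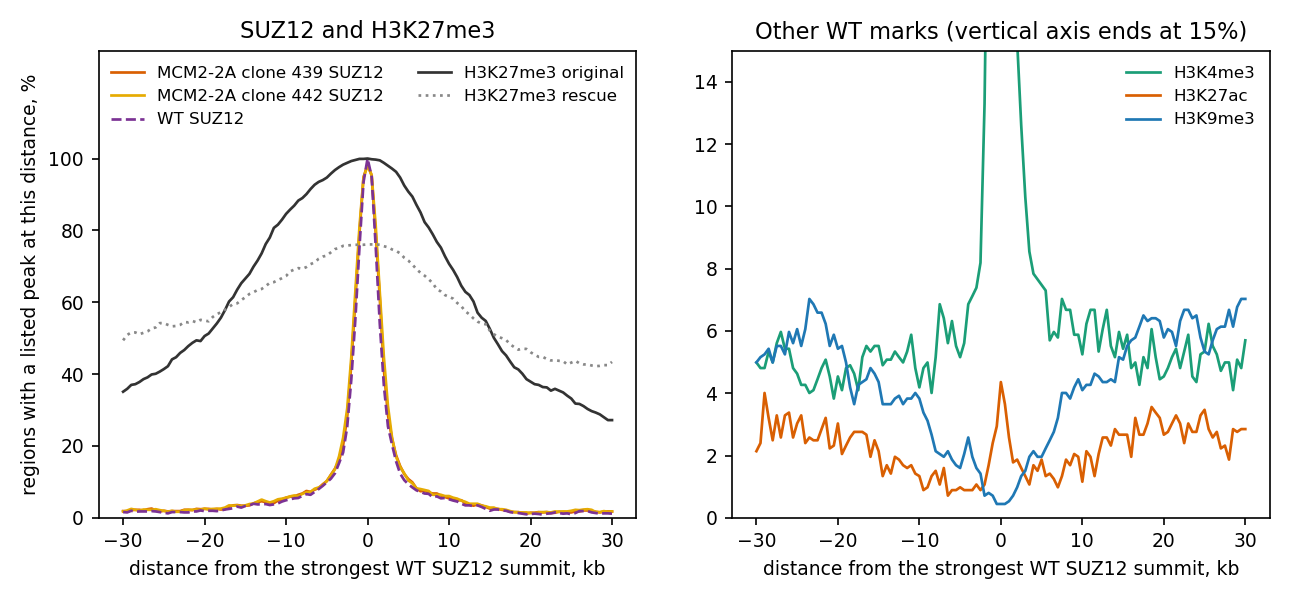
Share of regions (%) with a listed peak at each distance (kb) from the strongest WT SUZ12 summit, for 1123 regions whose summit lies inside, as lines for SUZ12 in clones 439 and 442 and in WT and for the WT marks. SUZ12 and H3K4me3 are sharp at 0, and H3K9me3 is lowest at 0 with 0.445%. Rescue H3K27me3 is broad (76.1% at 0 and 61.5% at 10 kb towards higher coordinates). The original H3K27me3 line is set in part by the choice of regions.

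The H3K27me3 regions were not centred on their SUZ12 peak. In the 829 regions with a single WT peak, the region ran a median of 15.8 kb towards lower coordinates and 11.7 kb towards higher ones. The longer side was that of lower coordinates in 62.4% (59.0 to 65.6%). This share was 73.5% (67.8 to 78.6%) of 257 regions with start sites on the plus strand only and 55.3% (49.2 to 61.3%) of 255 with start sites on the minus strand only. It was 62.1% with the single peak taken from clone 439 and 61.6% from clone 442, 56.3% (53.9 to 58.7%) in rescue regions of 20 kb or more, and 47.5% (44.4 to 50.7%) in regions under 10 kb. An equal reach on both sides would give 50%, which the interval for minus-strand starts and that for regions under 10 kb include. A part of the region calling in it was not tested.

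The regions were almost all bivalent by overlap. H3K4me3 was listed in 1121 of them, 99.6% (99.1 to 99.9%), against 34.5% (32.7 to 36.4%) of wide regions without SUZ12 and 22.8% of all H3K27me3 regions. Narrower regions with SUZ12 had 99.7%, close to that of the wide ones. H3K4me3 covered 10.4% of the bases of the regions, against 1.20% in wide regions without SUZ12 and 25.4% in narrower ones with it. Its peaks in the regions had a median fold enrichment of 20.9, against 9.63 over the whole H3K4me3 list. Of the start sites under SUZ12 in these regions, 95.4% had H3K4me3, against 97.2% of those under SUZ12 in narrower regions.

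The 4 regions without H3K4me3, named after their values were seen, were a pair that held no protein-coding gene, 1 over Gsg1l and 1 over Ces1h. The region over Ces1h, a carboxylesterase gene, was 21.1 kb wide and held 12.3 kb of H3K9me3. Their WT SUZ12 fold enrichments were 4.98 to 11.7, all below the median of the regions.

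H3K27ac was listed in 442 regions, 39.3% (36.5 to 42.2%), against 15.0% (13.7 to 16.4%) of wide regions without SUZ12, 41.8% (39.6 to 44.0%) of narrower regions with SUZ12 and 9.15% of all H3K27me3 regions. The share was 22.4% where at least 500 bp of H3K27ac were required. H3K27ac covered 1.09% of the bases of the regions, against 0.396% in wide regions without SUZ12, 3.44% in narrower regions with SUZ12 and 0.806% in all H3K27me3 regions. Of the H3K27ac peaks touching the regions, 43.1% also touched a WT SUZ12 peak. Of the start sites under SUZ12 in the regions, 3.21% had H3K27ac, against 15.7% of all placed start sites. The share was also low outside SUZ12 in the same regions (5.33%) and in wide regions without SUZ12 (2.01%). Under SUZ12 in narrower regions it was 7.03%. WT SUZ12 peaks touching the regions had H3K27ac in 18.8% (17 to 20.8%), and all other WT SUZ12 peaks in 25.5% (24.3 to 26.8%).

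The region with most H3K27ac was that of Tbx3, a T-box factor of the naive pluripotent state, with 24.9 kb of its 45.3 kb. It was followed by the region over Zic2, Zic5 and Pcca (10.9 kb), that over Skida1 and Mllt10 (8.97 kb), Egln3 (7.31 kb) and Ntn1 (7.08 kb). Both lists named a mark over the same region, and whether they lay on the same allele or in the same cells cannot be told apart in these lists.

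H3K9me3 was listed in 375 regions, 33.3% (30.6 to 36.1%), and in 31.4% (29.6 to 33.2%) of wide regions without SUZ12, intervals that overlap. Narrower regions with SUZ12 had 12.9% and all H3K27me3 regions 15.0%. It covered 2.07% of the bases of the regions and 2.87% of those of wide regions without SUZ12. The share was 2.00% in narrower regions with SUZ12 and 3.27% in all H3K27me3 regions. By bases, a measure that does not rise with width, the regions were thus close to the narrower ones and below all H3K27me3 regions. With the rescue H3K9me3 list the shares were 71.6% of the wide regions with SUZ12 and 73.5% of those without it. Of the original H3K9me3 regions that touched them, 6.04% also touched a WT SUZ12 peak. The most H3K9me3 bases were in clustered protocadherin regions. They were 25.2 kb at chr18:36919850-36976950 (Pcdha genes), 23.6 kb at chr18:37243510-37364060 (Pcdhb genes) and 18.7 kb at chr18:36991220-37031800 (Pcdha genes). Grb10 (13.7 kb) and the region of Nat8l (13.4 kb) followed.

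**Figure D3:**
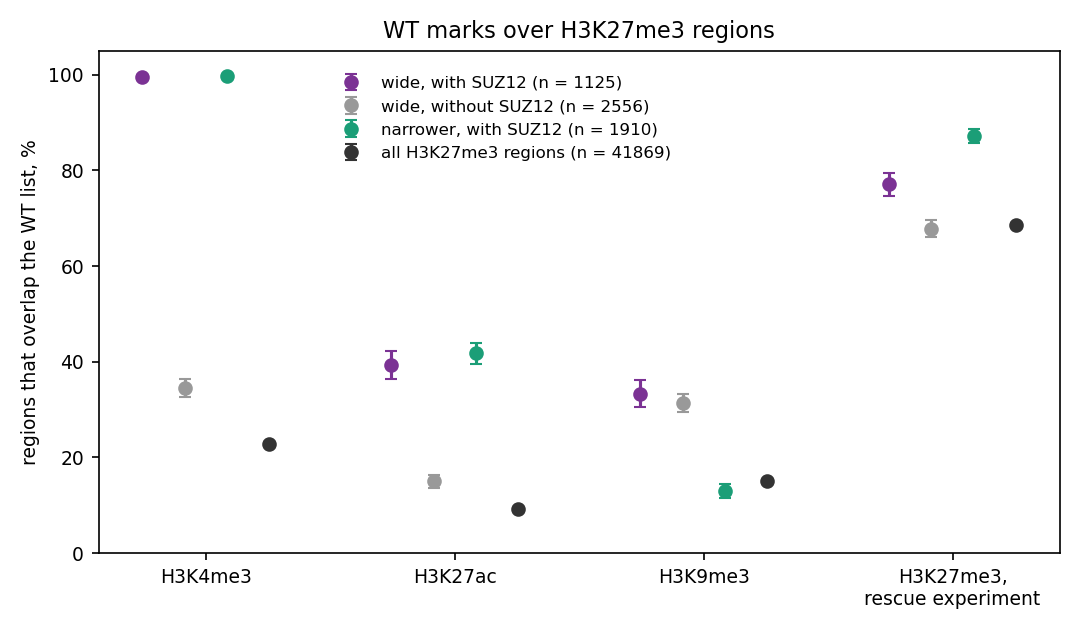
Share of regions (%) that overlap each WT list, with 95% Wilson intervals, for the wide regions with SUZ12, wide regions without it, narrower regions with it and all H3K27me3 regions. H3K4me3 and H3K27ac are higher in both classes with SUZ12 (99.6% and 39.3% in the wide regions with SUZ12), while the H3K9me3 intervals of both wide classes overlap (33.3% and 31.4%).

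MCM2 hands parental histones on at the replication fork, and the comparison of genotypes asks how PRC2 is placed once that function is mutated. Nearly all the regions had a SUZ12 peak somewhere in both mutant lists. Both mutant lists held SUZ12 in 1095 of the 1125 regions, 97.3% (96.2 to 98.1%), against 91.0% (89.7 to 92.2%) of narrower regions with WT SUZ12 and 93.4% of all H3K27me3 regions with WT SUZ12. Clone 439 held it in 98.6% and clone 442 in 98.1%. A region without a WT peak could not be a member, so the comparison is with regions chosen on the same WT list. A mutant peak anywhere in the region counted, and a wide region offers more room for one. Width was not matched, and its part in the difference was not tested.

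Of the 1619 WT peaks touching the regions, 1496 were in both mutant lists, 92.4% (91.0 to 93.6%), against 88.2% (87.2 to 89.1%) of the other WT peaks and 89.3% of all WT peaks. Strength moved with this share. When all WT peaks were divided into 4 groups of equal size by fold enrichment, the weakest group was held in 61.5% (55.5 to 67.2%) in the regions and 61.7% (59.0 to 64.3%) elsewhere. The strongest group was held in 99.8% in the regions and 99.9% elsewhere. The strongest group made up 38.9% of the peaks in the regions, so at like strength the peaks in and outside the regions were held in like shares.

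SUZ12 covered slightly more of the regions in the mutant clones. Clone 439 had 6.96 Mb and clone 442 had 7.13 Mb, against 6.44 Mb in WT, which gives ratios of 1.08 and 1.11. Narrower regions with WT SUZ12, chosen on the same WT list, had 4.84 and 5.10 Mb in clones 439 and 442, against 4.42 Mb in WT, with ratios of 1.09 and 1.15. Over the whole lists, which also hold sites with no WT peak, the ratios were 1.18 and 1.24. More SUZ12 bases than in WT were found in both clones in 612 regions (54.4%), beside 54.1% of all H3K27me3 regions with WT SUZ12. Fewer in both clones were found in 176 (15.6%), beside 16.4%. Both shares were close to the background, so neither is particular to the wide regions. Peaks that overlapped no WT peak were 10.7% (9.33 to 12.3%) of those touching the regions in clone 439 and 11.3% (9.92 to 12.9%) in clone 442. The regions were required to hold a WT peak, so these shares are not set against those of the whole lists.

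**Figure D4:**
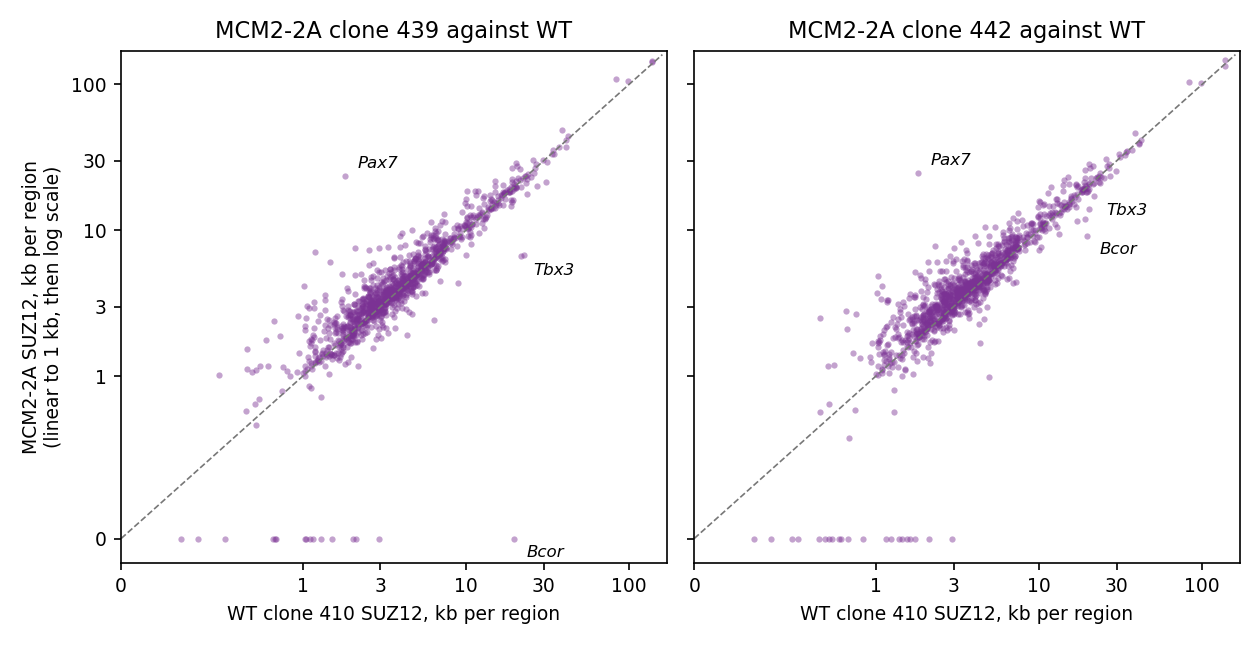
SUZ12 bases per region (kb, linear to 1 kb and then log scale) in clone 439 (left) and clone 442 (right) against WT clone 410, 1 point per region, with a dashed line at equality. Most points follow the line, Pax7 lies far above it in both clones, and Tbx3 and Bcor lie below it.

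Ranked by the smaller of both clones' gains in listed SUZ12 bases, the largest was at Pax7, ahead of HoxD. Pax7 encodes a factor of neural crest and muscle stem cells. Its region (chr4:139794810-139864370, 69.6 kb) had 23.4 kb of SUZ12 in clone 439 and 24.7 kb in clone 442, against 1.83 kb in WT. A peak of 20.9 kb in clone 439 (chr4:139819056-139839984, fold enrichment 93.0) and of 22.2 kb in clone 442 (fold enrichment 44.8) overlapped no WT peak. Read coverage there was not analysed, so a peak left out of the WT list and a true gain cannot be told apart. The WT H3K4me3 list had 13 peaks in the region, and the rescue H3K27me3 list covered it by 100%. Other gains were at the region of Skida1 and Mllt10 (28.9 and 28.6 kb in clones 439 and 442, against 20.4 kb in WT), that of Nes, the neural progenitor filament nestin, with Crabp2 and Bcan (18.5 and 18.1 kb, against 11.4 kb in WT), Skor2 (18.5 and 19.7 kb, against 11.9 kb) and Prickle1, of planar cell polarity (26.6 and 25.8 kb, against 19.3 kb). The region of Sim2, a neural bHLH-PAS factor, and Hlcs had 27.4 and 26.9 kb in the mutant clones, against 20.6 kb in WT. The remaining gains among the 10 largest were the protocadherin regions of the Pcdhga and Pcdhgb genes (2 regions) and of Pcdhb15 to Pcdhb22.

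The largest loss of listed bases was at Bcor, which encodes a corepressor subunit of a PRC1 variant, on chromosome X. Its region (38.2 kb) had no SUZ12 peak in clone 439 and 9.21 kb in clone 442, against 19.7 kb in WT. Here too, without read coverage, a peak left out of a list and a true loss cannot be told apart. The region of Tbx3 had 6.63 kb in clone 439 and 17.2 kb in clone 442, against 21.7 kb in WT. Its strongest peak had a fold enrichment of 6.10 and 9.15 in clones 439 and 442, against 22.6 in WT. Gata3, of T cell and other lineages, had 20042 and 23465 bp in clones 439 and 442, against 27272 bp in WT, and Tlx1, required for the spleen, had 15.7 and 11.9 kb, against 19.3 kb. The imprinted gene Grb10, an adaptor that restrains growth signalling, had 17.7 and 21.0 kb in the mutant clones, against 23.8 kb in WT. The other losses among the 10 largest (Wwox, Zfhx4, the region of Arhgef5 and Olfr47, Gpr50 and Tfap2d) were between 2.41 and 3.29 kb in either clone.

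SUZ12 was in neither mutant list in 7 regions, 0.622% (0.302 to 1.28%), beside 42 of 1910 narrower regions with WT SUZ12 and 1.61% of all H3K27me3 regions with WT SUZ12. Width was not matched here either. The 7 regions lay over Dpyd, of pyrimidine breakdown, Wwox, Trpc4, Arhgap24, Flvcr2 and Foxn3, and 1 held no protein-coding gene. Each had a single WT peak with a fold enrichment of 4.38 to 5.89, below the 10th percentile of the regions (8.03). All 7 had H3K4me3 and none had H3K27ac.

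The rescue experiment gave H3K27me3 of the same WT clone that the rule had not used. Its list overlapped 868 regions, 77.2% (74.6 to 79.5%), against 67.8% (66.0 to 69.6%) of wide regions without SUZ12, 87.2% (85.7 to 88.6%) of narrower regions with SUZ12 and 68.6% of all H3K27me3 regions. It covered 74.4% of the bases. Coverage was nearly all or nothing: 846 regions (75.2%, beside 61.5% of all H3K27me3 regions) were covered over at least 80% of their length, 257 (22.8%) had no covered base, and 22 lay between. Where a rescue region was present, it was in 1 piece in 809 of 868 regions, and the widest had a median of 47.1 kb.

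**Figure D5:**
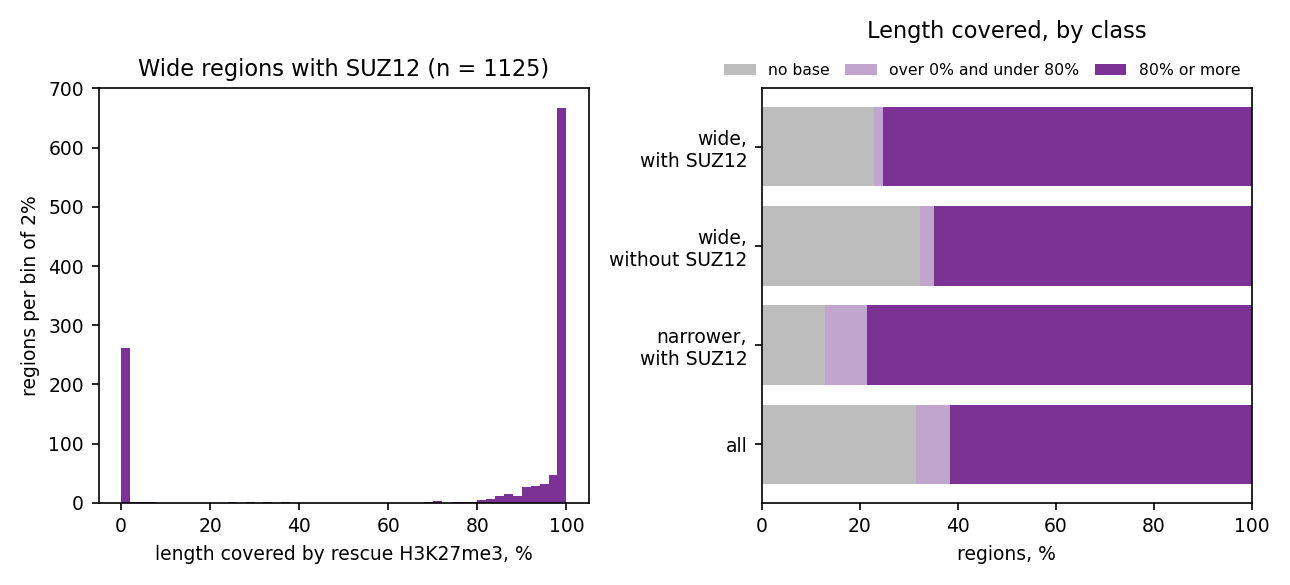
Left, number of the 1125 regions by the share of their length (%) under rescue H3K27me3, in bins of 2%. Right, share of regions (%) with no covered base, with over 0% and under 80%, and with 80% or more, for each class. Coverage of the wide regions with SUZ12 is at the extremes, with 257 regions at 0 and 846 at 80% or more.

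The 257 regions with no rescue H3K27me3 did not look weaker in SUZ12 or narrower. Their median WT SUZ12 fold enrichment was 30.3 and their median width 32.6 kb, against 27.7 and 31.9 kb in the other 868 regions, and 253 of them had SUZ12 in both mutant lists. They included the widest region, HoxC, and those of Emx2, Dlk1, Efnb1 and Pou3f3. The stretch without any rescue region around them had a median of 126 kb (10th to 90th percentile 65.4 to 301 kb). They were 13 of 31 regions on chromosome X and 244 of 1094 on the autosomes, a larger share on chromosome X. Absence from the rescue list is not taken as absence of the mark, which these values cannot decide, and a part of the reproducibility filter was not tested.

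The regions overlapped 1371 of 21887 protein-coding genes, 6.26%, and 469 genes lay wholly inside 1. A single gene was found in 811 regions (72.1%), 3 or more genes in 51 and none in 83. The regions with no gene had a median WT fold enrichment of 10.8, against 30.4 in those with a gene. Against 6.26% of all genes, the homeobox families were high: 7 of 12 LIM genes, 6 of 14 Nkx genes, 2 of 6 Irx genes and 4 of 6 Dlx genes overlapped a region. So did 6 of 9 Pax genes, 15 of 44 Fox genes, 8 of 19 Sox genes, 7 of 17 T-box genes, 2 of 5 Zic genes, 2 of 6 Gata genes and 8 of 18 neurogenic bHLH genes. At the other end were 0 of 80 ribosomal protein genes, 7 of 1106 olfactory receptor genes, 2 of 353 vomeronasal receptor genes and 7 of 367 Zfp genes.

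Among the LIM genes, which specify neuron classes, Isl2 was the strongest, and the region of Lhx6 had 16.6 and 17.5 kb of SUZ12 in clones 439 and 442, against 16.5 kb in WT. Among the Pax genes, Pax5 (21.4 and 22.9 kb in clones 439 and 442, against 19.3 kb in WT) and the eye regulator Pax6 (33.1 and 34.7 kb, against 34.6 kb in WT) were far closer to their WT values than Pax7. Among the T-box genes, Tbx2 had 18.9 and 19.0 kb, against 18 kb in WT, where Tbx3 had fewer bases in both clones than in WT. Sox1, of the early neural plate, had 6.74 kb in clone 439 and 23.2 kb in clone 442, against 22.6 kb in WT, so the mutant clones differed from each other there. Gata2, a factor of blood progenitors, had the highest share of its region under WT SUZ12 (77.4% of 21.6 kb) and 17.6 and 17 kb in the mutant clones, against 16.7 kb in WT.

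Genes of families named for signalling ligands, matched by symbol, were also found in the regions, though not every family member need be a secreted ligand. They included 7 of 19 Wnt genes, 7 of 22 Fgf genes, 5 of 20 Bmp and Gdf genes and 1 of 3 hedgehog genes. Shh, the morphogen of the ventral neural tube and limb, had 14.2 kb of SUZ12 in clone 439 and 13.9 kb in clone 442, against 14.2 kb in WT, and Bmp6 had 4.36 and 4.59 kb, against 4.90 kb in WT. The neighbours Wnt1 and Wnt10b shared a region with 24.7 and 27.6 kb in the mutant clones, against 26.3 kb in WT. Of the genes of these families, Bmp6 had the highest WT fold enrichment (116) and Shh the next (97.2).

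Clustered protocadherins, adhesion proteins by which neurons tell their own branches from others, stood out by number: 56 of 57 genes overlapped 9 regions. These regions had a median WT fold enrichment of 16.8, below the 28.7 of all the regions, and all 9 had SUZ12 in both mutant lists. Overlap was counted over whole gene bodies, so a gene could overlap more than 1 region without having its start site there. Of these 9 protocadherin regions, the one with the most WT SUZ12 bases (chr18:37704390-37769700, 65.3 kb) overlapped genes of the Pcdhga and Pcdhgb groups. It had 48.4 and 46.8 kb of SUZ12 in clones 439 and 442, against 38.6 kb in WT. Pcdhga1 to Pcdhga5 overlapped both this region and another one (chr18:37662230-37700680). Neighbouring genes share a region, so these 56 genes are not independent observations.

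Imprinted genes were in the regions in 11 of 28 cases and cyclin-dependent kinase inhibitors in 4 of 7. The region of Cdkn2a and Cdkn2b, the senescence inhibitors, had 21.5 and 33.2 kb of SUZ12 in clones 439 and 442, against 30.8 kb in WT, so the mutant clones went opposite ways. Of 22 naive pluripotency genes Esrrb and Tbx3 overlapped a region (9.09%), and of 32 PRC1 and PRC2 subunit genes Bcor, Pcgf5 and Yaf2 did (9.38%). The share over all protein-coding genes was 6.26%. At Esrrb SUZ12 had 4.08 and 3.83 kb in the mutant clones, against 4.74 kb in WT. No core histone gene of 87 matched by symbol (H13, which is no histone, among them) overlapped a region.

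The regions also held miRNA genes, 28 of 1005 hairpins (2.79%) in 23 regions. The Hox clusters carried members of the miR-10 and miR-196 families, whose mature strands from RefSeq are shown with the seed (bases 2 to 8) in capitals, because family members at different clusters share it.
mmu-miR-10a-5p: uACCCUGUagauccgaauuugug
mmu-miR-10b-5p: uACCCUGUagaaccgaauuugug
mmu-miR-196a-5p: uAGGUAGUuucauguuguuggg
mmu-miR-196b-5p: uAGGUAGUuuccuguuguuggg
Mir10a and Mir196a-1 lay in the HoxB region, Mir10b in HoxD, Mir196b in HoxA and Mir196a-2 in HoxC. All had SUZ12 in their region in both mutant lists, but not always over the hairpin. Mir196a-1 lay under no listed SUZ12 peak in any clone, Mir10b under none in WT and Mir196a-2 under none in clone 442. Mir449a and Mir449c lay together in the region of Cdc20b (30.9 kb, WT fold enrichment 50.2). Mir193b and Mir365-1 lay together in a region without a protein-coding gene (20.9 kb, WT fold enrichment 18.3). Expression of these miRNAs was not measured in the lists used here.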

How the data were processed

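ChIP-seq lists of SUZ12 (MCM2-2A clones 439 and 442, WT clone 410) and of histone marks (WT clone 410) were used, 10 lists from 26 of 136 samples. The submitters' processing notes name MACS2 2.1.0, Picard 2.20.7, BWA 0.7.15 and cutadapt 2.5, with mm10 as build and without roles. Caller settings were not given in the sources used here. For each peak of SUZ12, H3K27ac and H3K4me3 the authors deposited a ratio, the fold enrichment over local background, which was taken unchanged. For the broad H3K9me3 and H3K27me3 regions the deposited lists gave a width in bp. Replicates had been combined by the authors and read depth was unknown, so no test between replicates was possible and none was run, and differences between clones are descriptions of 1 list each.

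Lists were intersected with an overlap of at least 1 bp in Python 3.11.15 (numpy 2.4.6, pandas 2.3.3), with interval arithmetic tested on simulated data. Positions printed count from 1. Genes and sequences came from RefSeq tables (GRCm38.p6), with start sites placed for 17492 of 21887 protein-coding genes and none used here on chromosome 18. Of 2406 listed genes in 27 lists, 2404 were found by symbol, and 1 list is not reported here. The members and gene lists were chosen with earlier results of these data known.

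Regions were named by a rule: the 10 widest, the 10 with the highest WT SUZ12 fold enrichment, the 10 with most WT SUZ12 bases, the 3 nearest to the width threshold on either side, those with SUZ12 in neither mutant list, the 10 largest gains and losses shared by both clones, the 5 with most H3K27ac and the 5 with most H3K9me3 bases, and up to 4 genes per list by fold enrichment. The regions without H3K4me3, those without rescue H3K27me3 and the miRNA genes were named after their values were seen. Alternatives were other widths (15 and 30 kb), longer or reciprocal overlaps, equal numbers of peaks per list, the stronger part of a list, the rescue lists and autosomes only.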

Additional observations from a re-analysis of the deposited data

How the results depend on the processing

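With the 6298 strongest peaks of each SUZ12 list, both mutant lists held SUZ12 in 95.4% of the regions and 89.5% of their WT peaks. With a reciprocal overlap of 50%, 81.7% of the WT peaks were held. The ratios of SUZ12 bases stayed above 1 (1.05 to 1.09 in clone 439, 1.08 to 1.12 in clone 442).

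Counts followed the width set: 635 regions and 849 genes at 30 kb, and 469 genes when only those wholly inside were counted. H3K27ac was in 24% of regions with the stronger part of its list and in 22.4% with at least 500 bp of overlap. H3K9me3 was in 27.3% with at least 500 bp and in 71.6% with the rescue list, which held it in 38.3% of all H3K27me3 regions. By bases the rescue H3K9me3 list covered 5.75% of the regions and 9.62% of all H3K27me3 regions. Rescue H3K27me3 covered 64.9% of regions over at least 95% of their length. Keeping the 868 regions with a rescue region, an alternative added after seeing the data, gave 97.0% of regions and 92.5% of WT peaks held by both mutant lists.

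No paired analysis was possible because each list pools its replicates, and no replicate was left out in turn for that same reason. Read depth is unknown, and absence of a peak from a list cannot be told apart from a peak below the threshold.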
